A study of Mus musculus with 6 samples.

Results

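The pit mucous cells line the surface and the pits of the stomach and secrete the gel that covers it, with Muc5ac, the trefoil peptide Tff1 and the gastrokines as its main products. Described here are 7 genes of these cells whose products are not secreted as mucus: the surface protein genes Psca, Mucl3 and Vsig2, the calpain genes Capn8 and Capn9, the vesicle trafficking gene Sytl2 and the glutathione transferase gene Gsta4. They were chosen by name with earlier results of these data known, as were the lists of other genes below. Counts of called genes among the 7 or in a list are therefore descriptions, not tests. All 7 were found among the 34866 rows of the deposited count table and passed the filter on low counts. The libraries are polyadenylated RNA from antral gastric mucosa of mice, 3 with the genotype Muc6 +/+ (wild type 1 to 3) and 3 with Muc6 -/- (knockout 1 to 3). By its title, the series is about faulty glycosylation, Golgi stress and gastric tumours. Muc6 encodes the mucin secreted by mucous cells of the antral glands. The labels give neither the age, strain or sex of the mice nor how the allele was made, and do not say whether a library is 1 animal.

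Calpains are calcium-dependent cysteine proteases that cut their substrates at few sites. Most are found in many tissues, but Capn8 and Capn9 are the gastrointestinal members, and their products form a complex in pit cells that is known as the gastric calpain. Synaptotagmin-like proteins such as that of Sytl2 bind the small GTPases Rab27a and Rab27b on secretory granules and tether these to the plasma membrane. Psca encodes a small protein of the Ly6 family held on the membrane by a lipid anchor, Mucl3 a mucin-like membrane protein, and Vsig2 a membrane protein with immunoglobulin domains. The enzyme of Gsta4 joins glutathione to reactive aldehydes from oxidised lipids.

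Total counts were 19839799 to 21354029 per library, and Muc6 itself had 23248 counts over the wild-type libraries and 1 over the knockout libraries. Levels below are in CPM, counts per 1000000 of a library whose size was scaled for composition, and are means ± SD (n = 3). A change is the log2 of the knockout level over the wild-type level, given with its standard error (SE). All adjusted p values are from edgeR's quasi-likelihood test with Benjamini-Hochberg adjustment over 14017 genes. The Y-linked gene Ddx3y was at 40.5 ± 1.06 CPM in the knockout and 0.165 ± 0.142 CPM in wild type, so sex and genotype coincided and cannot be told apart in any comparison below. Summed levels of listed cell type markers also differed between libraries. For smooth muscle (5 of 5 genes detected) they were 161, 1103 and 2551 CPM in wild type 1, 2 and 3 and 46.1, 772 and 532 CPM in knockout 1, 2 and 3. For mucous gland cells the sum was 7379 to 9352 CPM in wild type and 14183 to 22047 CPM among the knockout libraries, although Muc6 is on that list. Markers of immune cells summed to 9.89 to 61.3 CPM in wild type and 104 to 182 CPM in the knockout, and those of squamous epithelium to 4.47 to 9.29 and 149.8 to 165 CPM. Of the 6 squamous genes only 3 passed the filter on low counts, and the knockout sum was mostly Ivl (102 ± 34.0 CPM) and Krt13 (46.9 ± 32.5 CPM). Chief cell markers summed to 3926 to 5366 and 136 to 1117 CPM, parietal cell markers to 114 to 473 and 8.58 to 65.5 CPM, and endocrine markers to 1455 to 2014 and 60.7 to 423 CPM. The chief cell sum was mostly Pgc (4589 ± 719 and 578 ± 490 CPM). Of 3 tested chief cell markers, 2 were lower, and Pga5 did not pass (8.52 ± 6.57 and 7.96 ± 5.03 CPM). Markers of epithelium in general were at 12536 to 15871 and 12320.2 to 13101 CPM. The part of any of these in the results was not tested.

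Of the 7 genes, 6 fell in the knockout and Vsig2 did not pass the test. Among all tested genes, 19.2% fell and 38.4% passed in either direction. The 6 genes that fell had values that did not overlap between genotypes, which held for 54.8% of all tested genes, or 26.6% with the knockout below wild type. A fall of at least 1 on the log2 scale was called for 4 of them, against 6.72% of all tested genes. With libraries scaled to total counts, 3 of the 7 genes were lower and none higher, where 7.78% and 40.9% of all tested genes were. With scaling to 10 epithelial genes, 5 were lower and none higher, where 11.8% and 21.1% of all tested genes were. The median change of the 7 genes was -1.48, against 0.02 for all tested genes. Together the 7 genes took 1.52%, 1.14% and 1.28% of the counts in wild type 1, 2 and 3, and 0.605%, 0.93% and 0.82% in knockout 1, 2 and 3. In bulk tissue, fewer pit cells and less RNA per pit cell cannot be told apart. Since the labels do not say that replicates came from separate animals, p values measure only how far these samples spread, and that spread may be technical.

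**Figure D1:**
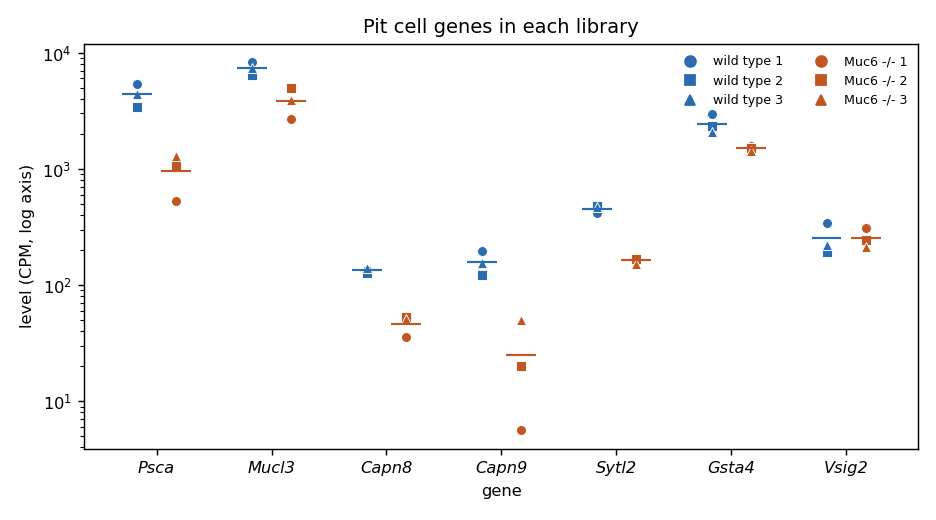
Level of each gene in each library, in CPM on a log axis; circles, squares and triangles are replicates 1, 2 and 3, and horizontal lines are genotype means (n = 3). The genotypes are apart for all genes but Vsig2, and the widest spread is that of Capn9 in the knockout, from 5.61 to 49.8 CPM.

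Of the surface protein genes, Psca fell most. The levels in wild type 1, 2 and 3 were 5340, 3407 and 4446 CPM, and those in knockout 1, 2 and 3 were 526, 1064 and 1281 CPM. The lowest wild-type library was above the highest knockout library, and knockout 1 was the lowest of all. Psca (ENSMUSG00000022598.6) changed by -2.20 (SE 0.35, adjusted p = 0.00393), which left the knockout at 21.8% of the wild-type level. Without both libraries numbered 1, which had the lowest smooth muscle sums of their genotypes, it was -1.77 (adjusted p = 1.41e-04). Mucl3, the gene with the most reads of the 7, was at 8240, 6434 and 7326 CPM in the wild-type libraries and at 2676, 4938 and 3930.4 CPM in the knockout. Its genotypes did not overlap either, and knockout 1 was again lowest. Mucl3 (ENSMUSG00000073408.2) fell by 0.93 on the log2 scale (SE 0.23, adjusted p = 0.0175), to 52.5% of wild type. That call ended without knockout 3 (adjusted p = 0.0505) and with total counts, at -0.51 (0.109), a scaling that moved the median of all genes from 0.02 to 0.43.

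Vsig2 did not pass the test. Its levels were 343, 194 and 223 CPM in wild type and 309.5, 242 and 212 CPM in the knockout, so that the genotypes overlapped. In each genotype the library numbered 1 was the highest. The log2 difference of Vsig2 (ENSMUSG00000001943.8) was 0.01 (SE 0.24, adjusted p = 0.984), with a 95% interval of -0.55 to 0.57, and with total counts it was 0.42 (0.173). A decrease down to -0.55 lies within that interval, so the test does not show that the Vsig2 level was the same.

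Both calpain genes of the gastric calpain fell. Capn8 was at 135, 126 and 141 CPM in the wild-type libraries and at 36.0, 52.7 and 50.8 CPM in the knockout. All 3 knockout libraries lay well under all 3 wild-type libraries, and the spread within a genotype was small. Capn8 (ENSMUSG00000038599.14, chromosome 1, 182565007 to 182632352, plus strand, mm10) fell by 1.53 on the log2 scale (SE 0.16, adjusted p = 6.62e-04), to 34.7% of wild type. Capn9 was at 197, 121 and 154 CPM in the wild-type libraries and at 5.61, 20.2 and 49.8 CPM in the knockout. Here the knockout libraries differed more from each other than the wild-type ones did, with a coefficient of variation of 89.4% against 24.4%. The change of Capn9 (ENSMUSG00000031981.7), at -2.64 (SE 0.79, adjusted p = 0.0491), was the largest of the 7 genes and the least certain, with a 95% interval of -4.64 to -0.64. The call ended without any 1 wild-type library or without knockout 2 (adjusted p 0.0949 to 0.148), and without both libraries numbered 1 (0.0697), while the change stayed between -3.60 and -2.00. It also ended with total counts (0.0634), with scaling to epithelial genes (0.0564), with RLE factors (0.0514) and with no low-count filter (0.116).

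The log2 ratio of Capn8 to Capn9 counts was -0.55, 0.06 and -0.13 in wild type 1, 2 and 3. In knockout 1, 2 and 3 it was 2.68, 1.38 and 0.03. Knockout 3 thus held the 2 calpain transcripts in a ratio within the wild-type range, and the ratio was highest in knockout 1. The mean difference was 1.57, with an exact two-sided permutation p of 0.2, where 3 against 3 libraries cannot go below 0.1, and 0.229 adjusted over the 8 ratios compared. Without knockout 1, the difference was 0.91.

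For 3 of the 7 genes, both calpain genes and Mucl3, the RefSeq promoter table (GRCm38.p6) held a sequence. The 250 bases before the start are shown 5′ to 3′ because all 3 genes fell, with any match to 8 short motifs in capitals.
Capn8: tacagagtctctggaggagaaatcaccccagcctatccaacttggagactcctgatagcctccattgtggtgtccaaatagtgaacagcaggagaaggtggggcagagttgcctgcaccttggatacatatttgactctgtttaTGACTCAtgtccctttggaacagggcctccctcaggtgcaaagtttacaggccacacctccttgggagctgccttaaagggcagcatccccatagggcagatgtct
Capn9: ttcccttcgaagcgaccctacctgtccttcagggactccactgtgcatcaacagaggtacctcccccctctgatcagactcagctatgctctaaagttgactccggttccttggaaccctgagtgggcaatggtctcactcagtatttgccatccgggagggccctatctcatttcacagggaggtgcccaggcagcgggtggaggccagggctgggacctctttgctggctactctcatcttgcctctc
Mucl3: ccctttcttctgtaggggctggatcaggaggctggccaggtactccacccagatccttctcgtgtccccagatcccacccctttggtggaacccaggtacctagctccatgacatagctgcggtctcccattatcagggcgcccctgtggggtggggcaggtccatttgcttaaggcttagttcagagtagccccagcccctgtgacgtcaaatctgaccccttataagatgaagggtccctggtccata
They lie at chr1:182564757-182565006 (plus strand), chr8:124575861-124576110 (plus strand) and chr17:35643696-35643945 (minus strand), and their GC content was 51.6%, 57.2% and 57.2%. The motifs, none of which overlaps another match, were searched on both strands. For the core promoter element bound by TBP the letters were TATAAA. For zinc finger factors of the Gata6 kind they were GATAAG. Forkhead factors were represented by TGTTTAC in one form, while TGTTTGC was searched as the other form of that motif. The AP-1 motif was TGACTCA. The E-box was searched as CACGTG. For factors of the Sox family the letters were CATTGTT. The Klf family motif was GGGTGTG. The only match was TGACTCA, 106 bases before the start of Capn8, letters that 4.46% of all 32851 promoters in the table hold in this window. The other motifs were in 3.17% to 12.4% of all promoters and in none of these 3. A match is a description of the letters, and a lack of one says only that they are not in this window.

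Sytl2 varied little within a genotype. Its levels were 416, 475 and 467 CPM in wild type and 169.9, 167 and 150.2 CPM in the knockout. The genotypes were far apart, and the coefficient of variation was 7.04% in wild type and 6.6% in the knockout. Sytl2 (ENSMUSG00000030616.15, chromosome 7, 90302252 to 90410719, plus strand, mm10) fell by 1.48 on the log2 scale (SE 0.11, adjusted p = 2.69e-04), to 35.9% of wild type. Gsta4 was at 2962, 2326 and 2074 CPM in the wild-type libraries and at 1574, 1504 and 1419 CPM in the knockout. The genotypes did not overlap, and wild type 1 was the highest library. Gsta4 (ENSMUSG00000032348.6, chromosome 9, 78182774 to 78209349, plus strand, mm10) fell by 0.71 on the log2 scale (SE 0.16, adjusted p = 0.0108), the smallest change among the genes that passed. With total counts the change of Gsta4 was -0.29 and did not pass (0.149).

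**Figure D2:**
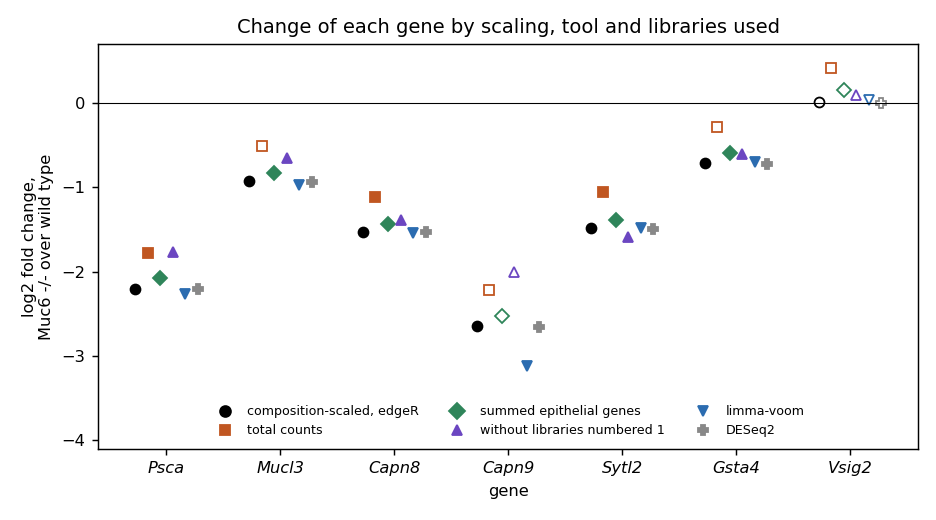
Log2 fold change of each gene with composition-scaled edgeR, other scalings, other tools and without both libraries numbered 1; filled symbols have an adjusted p under 0.05 and open ones do not. Psca, Capn8 and Sytl2 are filled throughout, Vsig2 is open throughout, and total counts place each gene higher than the composition-scaled fit.

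Per length of annotated exons, the genes spanned a wide range of levels in wild type. Psca was at 5114 ± 1125 CPM per kilobase, which ranked 16 of 13995 genes with a length. Mucl3 followed at 2809 ± 346 (rank 31) and Gsta4 at 1938 ± 362 CPM per kilobase (rank 37). Vsig2 was at 128 ± 39.8, Capn9 at 65.2 ± 15.9, Capn8 at 35.5 ± 1.88 and Sytl2 at 32.5 ± 2.29 CPM per kilobase. The neighbours Capn8 and Sytl2 in this order did not differ beyond their spread. In the knockout the order changed at the top, since Mucl3 was at 1474, Gsta4 at 1184 and Psca at 1113 CPM per kilobase, and Psca was at rank 39 while Mucl3 and Gsta4 were at ranks 30 and 37. Gsta4 and Psca did not differ there beyond the spread of Psca (SD 452). The summed exons of Sytl2 are 13941 bases over all its annotated transcripts, so its level per kilobase depends on which of these are used. No stretch of 50 bases from the transcripts of Psca, Capn8, Capn9, Sytl2, Gsta4 or Vsig2 occurred in a transcript of another gene, and 0.511% of those of Mucl3 did.

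The knockout libraries did not vary in the same way for all genes. Knockout 1 was the lowest knockout library for 4 genes (Psca, Mucl3, Capn8 and Capn9) and the highest for the other 3 (Sytl2, Gsta4 and Vsig2). Relative to each gene's mean over 6 libraries, knockout 1 was at -3.22 for Capn9, -1.90 for Psca, -1.12 for Capn8 and -0.96 for Mucl3 on the log2 scale. It was at -0.67 for Sytl2, -0.28 for Gsta4 and 0.32 for Vsig2. The secreted product gene Muc5ac was at -2.90 in knockout 1, -1.21 in knockout 2 and -0.66 in knockout 3, the same order of libraries as for Psca and Capn9. The summed markers of chief cells (136, 507 and 1117 CPM in knockout 1, 2 and 3), parietal cells (8.58, 27.1 and 65.5 CPM) and endocrine cells (60.7, 269 and 423 CPM) were in that order too. So were those of mucous gland cells (14183, 16671 and 22047 CPM), a sum that was higher in the knockout than in wild type. The intestinal sum had that order as well (376, 515 and 697 CPM, against 899.5 to 956 CPM in wild type). In wild type it was mostly Fabp2 (703 ± 43.5 CPM, against 103 ± 92.1 CPM in the knockout). Of the same list, Vil1 and Sis were called higher, from 220.2 ± 55.9 to 364 ± 7.51 CPM and from 0.0574 ± 0.058 to 14.4 ± 13.5 CPM. Markers of smooth muscle, pit cells, stroma, squamous cells and general epithelium were also lowest in knockout 1, but highest in knockout 2. Those of immune cells (182, 104 and 153 CPM in knockout 1, 2 and 3) and tuft cells (40.1, 27.7 and 35.6 CPM) were highest in knockout 1. The part of any of these cell types was not tested.

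**Figure D3:**
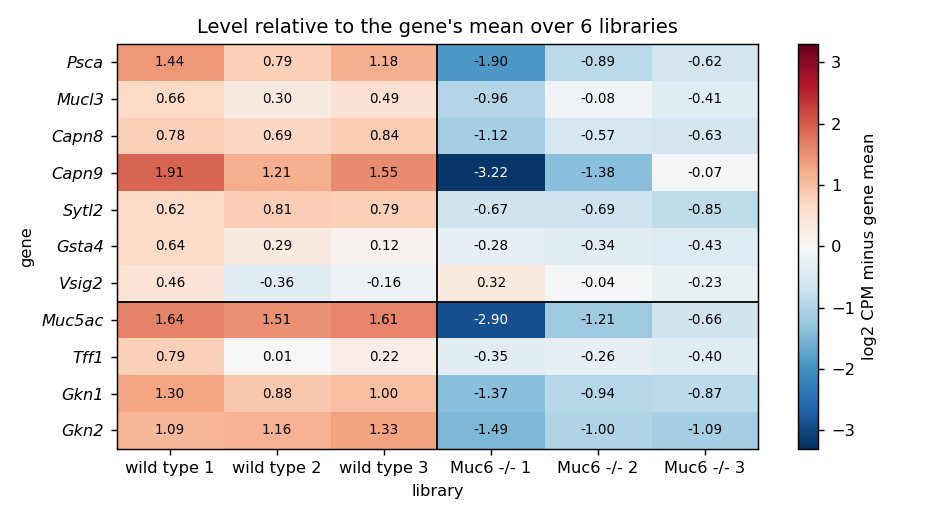
Log2 CPM of each gene in each library minus its mean over the 6 libraries, for the 7 genes and, under the line, 4 genes of secreted pit cell products. Wild-type libraries are positive except for Vsig2, and knockout 1 is the lowest library for Capn9 (-3.22) and Muc5ac (-2.90).

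The list of other pit cell genes showed 6 of 9 members lower, 1 higher and 2 with no call, with a median of -0.71; of all tested genes, 19.2% were lower and 19.3% higher. Muc5ac, the mucin of the surface gel, fell by 2.91 on the log2 scale (SE 0.55, adjusted p = 0.0101), with levels of 6279, 5739.6 and 6141 CPM in wild type and 269.9, 868 and 1274 CPM in the knockout. Gkn2 and Gkn1, the gastrokines, changed by -2.37 and -2.11, and Anxa10, an annexin of the gastric epithelium, by -1.97 (SE 0.15, adjusted p = 2.84e-04). Tff1 changed by -0.71, the same as Gsta4, and its call ended with total counts (adjusted p = 0.289) and without wild type 3 or any 1 knockout library (0.0577 to 0.104). The 1 member called higher, Muc1, a membrane mucin, was no longer called without any 1 wild-type library or without knockout 2.

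Ratios to Muc5ac were also compared, since this mucin forms the gel that the same cells secrete. All share Muc5ac, which changed by -2.91 and was lowest in knockout 1, so these ratios are not independent of each other. The log2 ratio of Mucl3 to Muc5ac was 0.39, 0.16 and 0.25 in wild type and 3.31, 2.51 and 1.63 in the knockout. That of Psca was -0.23, -0.75 and -0.47 in wild type and 0.96, 0.29 and 0.01 in the knockout. In both cases all knockout libraries were above all wild-type libraries. The mean differences were 0.91 for Psca, 1.63 for Capn8, 1.70 for Sytl2, 2.21 for Mucl3, 2.48 for Gsta4 and 3.21 for Vsig2, each with the smallest exact two-sided permutation p that this design allows, 0.1 (0.133 adjusted over 8 ratios). Without knockout 1 they were 0.63 for Psca, 1.15 for Capn8, 1.01 for Sytl2, 1.80 for Mucl3, 1.79 for Gsta4 and 2.41 for Vsig2. Capn9 was the exception at 0.07 (p = 0.9, exact permutation). Its ratio to Muc5ac was -4.99, -5.57 and -5.32 in wild type and -5.58, -5.42 and -4.68 in the knockout, so the 2 groups overlapped.

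**Figure D4:**
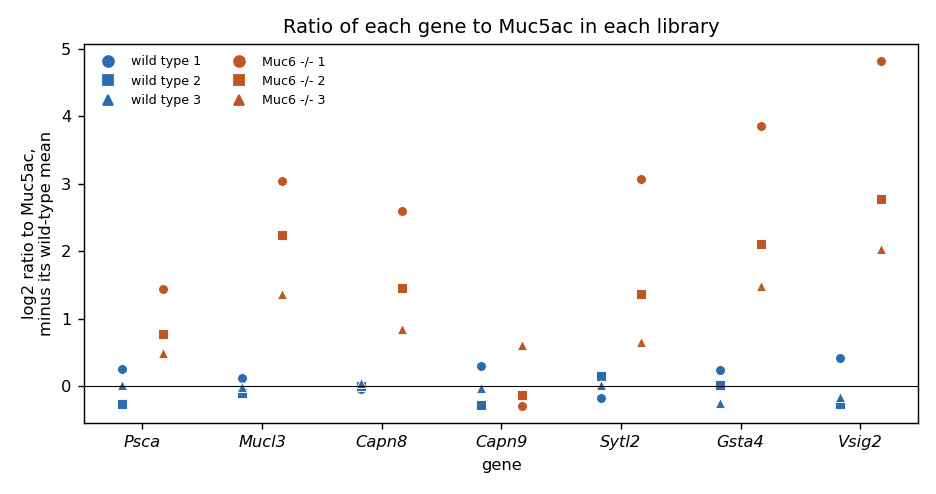
Log2 ratio of each gene's counts to those of Muc5ac in each library, minus the mean of that ratio in wild type. Knockout libraries are above all wild-type libraries for every gene but Capn9, and knockout 1, where Muc5ac was lowest, is the highest for each of these. Any gene that fell less than Muc5ac rises in this ratio.

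In the rest of the calpain system, 3 of 10 tested members fell, 2 rose and 5 did not pass, with a median of 0.10. Of all tested genes 19.2% fell and 19.3% rose, so the share of the list that rose was near the background. Capn13 changed by -2.12 (SE 0.13, adjusted p = 1.54e-04), from 223, 169 and 198 CPM in wild type to 48.8, 43.0 and 43.3 CPM in the knockout. Its genotypes did not overlap. Capn7 changed by -0.95 and Cast, which encodes the calpain inhibitor calpastatin, by -0.44. Capns1, the small regulatory subunit of the conventional calpains, changed by 0.59, and Capn15 by 0.97. The widely expressed Capn2, which lies 47.4 kb from Capn8 on chromosome 1, was at 155 ± 9.27 CPM with Muc6 and 184 ± 23.4 CPM without it (0.25, SE 0.12, adjusted p = 0.146). The rises depended on the libraries used, with none called without wild type 2 or wild type 3, 1 without knockout 1, 2 or 3, and 5 with total counts, where 40.9% of all tested genes were higher. The call of Cast ended with total counts (adjusted p = 0.878), with epithelial scaling (0.103) and without wild type 2 (0.0507).

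Both Rab27 genes, whose products bind that of Sytl2, fell. Of 10 genes of the Rab27 and synaptotagmin-like list, 5 fell, none rose and 5 did not pass, against 19.2% and 19.3% of all tested genes, and the median was -1.21. Rab27b was at 792, 838 and 821 CPM in wild type, against 225, 206 and 188 CPM without Muc6. For Rab27a the wild-type levels were 471, 434 and 448 CPM, and the levels without Muc6 were 176, 171 and 155 CPM. For both GTPase genes the libraries of a genotype lay close together and the genotypes far apart. Rab27b changed by -1.98 (SE 0.11, adjusted p = 1.19e-04) and Rab27a by -1.43 (SE 0.10, adjusted p = 2.52e-04). Sytl1 and Sytl4, relatives of Sytl2, changed by -1.62 (SE 0.19) and -1.30 (SE 0.11), and the weaker Sytl5 by -1.32 (SE 0.37), while the linker genes Mlph, Exph5 and Myrip, whose products also bind Rab27, and the granule priming gene Unc13d did not pass, at -0.13, -0.56, -0.17 and 0.05. The number of the list called lower was 4 without wild type 2 or 3, without knockout 2 or 3, with total counts or epithelial scaling, and with the replicate number as a block.

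Among glutathione transferase genes other than Gsta4, 13 of 24 fell, 11 did not pass and none rose, and their median was -0.59. Among all tested genes 19.2% fell and 19.3% rose. Gsta1, which lies 21.3 kb from Gsta4 on chromosome 9, was at 8356, 8582 and 8487 CPM in the wild-type libraries and at 849.9, 1485 and 1637 CPM in the knockout. Its change was -2.68 (SE 0.25, adjusted p = 5.53e-04) beside the -0.71 of Gsta4. Gsta2, at -2.85, shares 49.8% of its stretches of 50 bases with other genes and Gsta1 90.5%, so the levels of these 2 are uncertain, while Gsta4 shares none. Mgst3 and Mgst2, membrane-bound transferases, changed by -1.73 and -1.47. The number lower was 7 without knockout 2 and 6 with total counts. With total counts, with epithelial scaling, without wild type 1 and without both libraries numbered 1, 1 was higher.

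Among 17 tested members of the Ly6 family, to which Psca belongs, 3 fell, 2 rose and 12 did not pass, with a median of -0.21. These shares, 17.6% lower and 11.8% higher, were not above the 19.2% and 19.3% of all tested genes. Lypd6b changed by -1.75 (SE 0.16, adjusted p = 5.03e-04), the weakly expressed Lypd6 by -3.01, and Cd59a, a complement inhibitor gene, by -1.40. Ly6e and the urokinase receptor gene Plaur rose by 2.43 (SE 0.23) and 1.95 (SE 0.20). Ly6e was at 85.2, 78.7 and 67.9 CPM in the wild-type libraries and at 485, 486 and 280.5 CPM in the knockout, the opposite direction to Psca. The number lower was 5 without knockout 1 or without both libraries numbered 1, and 5 were higher without wild type 1 or without both.

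Of the 12 junction proteins with immunoglobulin domains, which include the closest relatives of Vsig2, 2 fell, 2 rose and 8 did not pass, with a median of 0.16. That is 16.7% in each direction, near the 19.2% and 19.3% of all tested genes. Vsig1, a junction protein of gastric epithelium, was at 1191, 1234 and 1096 CPM in the wild-type libraries and at 333, 413 and 416 CPM in the knockout. It changed by -1.60 (SE 0.13, adjusted p = 3.77e-04), where the difference of Vsig2 was 0.01. Vsig8, at under 3 CPM, changed by -1.62, and Gpa33 and Vsig10 by 0.64 and 0.38. The call of Vsig8 ended with total counts (adjusted p = 0.052), without wild type 1 or 2 or without any 1 knockout library (0.0515 to 0.0883), and that of Gpa33 without wild type 2 (0.0546). That of Vsig10 ended without wild type 2 or 3 or without knockout 2 or 3 (0.0759 to 0.149). Of 4 tested membrane mucin genes, 3 rose and none fell, against 19.3% and 19.2% of all tested genes, while Mucl3 fell. Muc13 was at 2.06, 2.53 and 3.19 CPM in the wild-type libraries and at 230.1, 262 and 257 CPM in the knockout (6.59, SE 0.19, adjusted p = 8.36e-06), and Muc4 and Muc20 changed by 1.04 and 2.07. Only the rise of Muc13 was called without wild type 2 or wild type 3, and the call of Muc20 also ended without any 1 knockout library (0.0719 to 0.14). For Muc20, limma-voom gave 0.0693 and the fit with no low-count filter 0.0582. The call of Muc4 also ended without both libraries numbered 1 (0.0533).

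**Figure D5:**
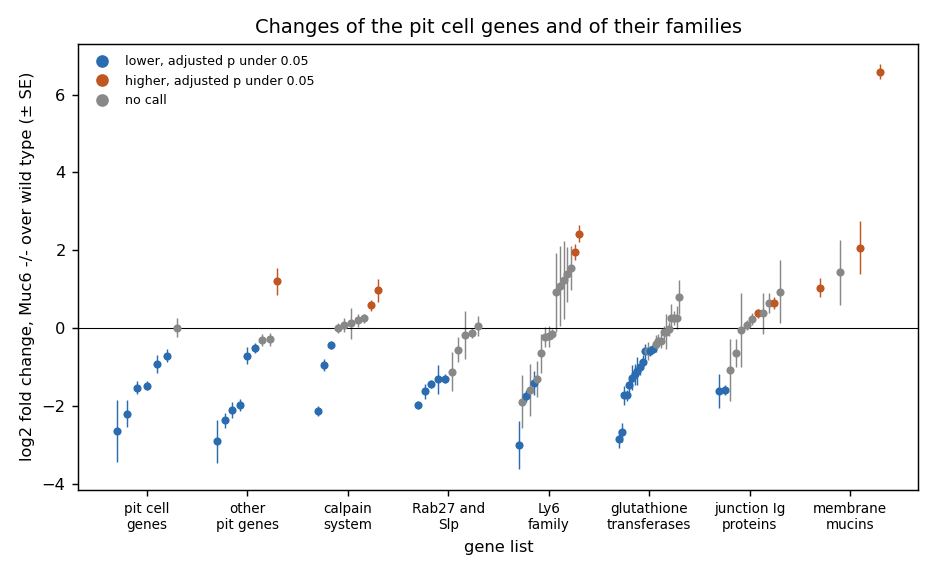
Log2 fold change of knockout over wild type with its SE for each tested gene, by list; blue points are lower and orange points higher at an adjusted p under 0.05, and grey points have no call. The Rab27 and glutathione transferase lists hold 5 and 13 lower genes and no higher one, and Muc13, at 6.59, is the highest point of the membrane mucins.

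The nearest tested protein-coding gene on either side of each of the 7 genes was also followed. Of these 14 neighbours, 2 fell (Picalm beside Sytl2 and Gsta1 beside Gsta4), 1 rose (Them6 beside Psca) and 11 did not pass, while 19.2% of all tested genes fell and 19.3% rose. Psca (chromosome 15, 74714839 to 74717069, plus strand, mm10) has Them6 at 4.13 kb, which changed by 1.31 (SE 0.30, adjusted p = 0.0127), and Jrk at 5.30 kb, whose difference of 0.19 did not pass. The call of Them6 ended without wild type 2 (0.0542). Vsig2 (chromosome 9, 37539255 to 37544205, plus strand) lies 0.936 kb from Esam and 0.287 kb from Nrgn, whose differences were 0.64 (adjusted p = 0.0772) and 0.38 (0.345). The neighbours of Capn9 (chromosome 8, 124576111 to 124618731, plus strand), Agt and 2310022B05Rik, had differences of -0.57 and 0.49 and did not pass. Picalm, an endocytosis gene, was at 202, 213 and 207 CPM in the wild-type libraries and at 149, 151 and 158 CPM in the knockout (-0.44, adjusted p = 0.00808), a call that ended with total counts (0.838) and epithelial scaling (0.093). The differences were 0.39 and 0.61 for Vars2 and Cdsn beside Mucl3, -1.27 for Susd4 beside Capn8, and 0.08 and -0.09 for Crebzf and Ick, none past the threshold. Mucl3 (chromosome 17, 35635752 to 35643695, minus strand) overlaps Sfta2 on the other strand, which had 138 counts in wild type and 62 in the knockout, against 392358 and 271937 for Mucl3. Only the spans of the 2 genes were compared, not their exons, and the use of strand in counting is not stated. Whether reads of one gene were counted for the other was not tested.

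The genes whose profile was most like the mean of the 7 were Mgst2, D1Ertd622e, Ifrd1, Spryd7, Bco2, Bnipl, Ctnnbip1 and Tmem189. Likeness was the root mean square distance of centred log2 CPM over 6 libraries among 8449 genes, and it was 0.09 for Mgst2 and 0.11 to 0.15 for the others. Mgst2 is the glutathione transferase named above, Ifrd1 encodes a transcriptional cofactor, Bco2 a carotenoid-cleaving enzyme and Ctnnbip1 an inhibitor of beta-catenin. Mgst2 was at 497, 433 and 410.1 CPM in the wild-type libraries and at 128, 174 and 183 CPM in the knockout, with knockout 1 lowest. The changes of these 8 genes lay between -1.56 for Ctnnbip1 and -1.28 for Tmem189, which follows from choosing them by likeness. Of the 7 genes themselves, each of which is part of the mean, Capn8 was nearest to it, at 0.13, and Capn9 farthest, at 1.11, followed by Vsig2 at 0.83.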

How the data were processed

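Per the labels' protocols, a Nucleospin kit gave the RNA and a TruSeq Stranded mRNA kit the libraries. The values the authors deposited are estimated counts of each gene in each library; that they are estimates was read from the values, of which 28.8% to 34.25% of those above 0 in a library are not whole. The build was mm10, per the submitters' processing notes, while for the aligner, counter, annotation and use of strand the entry is "not given in the sources used here". Counts were rounded, and 34652 of 34866 identifiers matched GENCODE M21, which is on the same build, by identifier with the version removed. All 6 libraries entered edgeR 4.0.16 (filterByExpr, TMM factors, robust quasi-likelihood fits, false discovery rate of 0.05). The test was tried on simulated data. No 2 same-genotype libraries agreed within sampling noise (chi-square 16.0 to 79.6 per degree of freedom). Ratios used log2 counts with 0.5 added. The 7 genes and the lists were chosen with earlier results of these data known. Genes named are Muc6, the 7, Muc5ac, Tff1, Gkn1 and Gkn2, and up to 4 per list by adjusted p among those past the threshold. Both neighbours of each gene and the 8 most alike (mean of at least 10 CPM) are named too. Capn15, Cd59a, Exph5, Mlph, Muc1, Myrip, Sytl5, Unc13d, Pgc, Pga5, Fabp2, Vil1, Sis, Ivl, Krt13 and Ddx3y were named after their values were seen. Alternatives were RLE, upper quartile and total-count scaling, scaling to 10 epithelial genes, other filters and thresholds, DESeq2 1.42.0, limma-voom (limma 3.58.1), a replicate block and libraries left out. Of the 13 marker lists, those of pit, parietal, chief, endocrine, tuft, stromal, smooth muscle and intestinal cells gave 4, 3, 2, 2, 0, 0, 0 and 1 genes lower and 0, 0, 0, 0, 1, 0, 0 and 2 higher. Those of general epithelium, gland mucous cells, immune cells, squamous cells and the Y chromosome gave 2, 1, 0, 0 and 0 lower and 5, 3, 3, 3 and 4 higher.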

Additional observations from a re-analysis of the deposited data

How the results depend on the processing

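No gene of the 7 was called higher, and none changed direction among those that passed, under any of the 16 other fits. The number called lower was 5 to 6 with single libraries left out, 5 with RLE factors, epithelial scaling, no low-count filter or without both libraries numbered 1, and 3 with total counts, which lost Mucl3, Capn9 and Gsta4, or at a false discovery rate of 0.01. Psca, Capn8 and Sytl2 passed in all 16, between -2.46 and -1.77, -1.62 and -1.11, and -1.59 and -1.06. Over all genes, total counts gave 5730 higher and 1091 lower, against 2699 and 2687, and epithelial scaling 2953 and 1658. A false discovery rate of 0.01 gave 1257 and 1408, and leaving out single libraries 1600 to 3045 higher and 1721 to 2964 lower, with the fewest without wild type 2 (1600 and 1742) or knockout 2 (1810 and 1721). Without both libraries numbered 1 there were 3394 higher and 3474 lower. The causes were not tested, apart from the stricter threshold. The mean ratio of Capn9 to Muc5ac turned to -0.07 without wild type 2 and -0.21 without knockout 3, with 0.24 at the other end. Whether replicate numbers pair the samples was not settled: deviations of same-numbered libraries correlated at 0.23, 0.0859 and 0.185. Wild type 1 and knockout 1 were each other's best match, while wild type 3 correlated better with knockout 2 than with its own number. With the replicate block 6 of the 7 genes were lower, and 2572 genes in all were higher and 2497 lower. At these depths the 7 genes had 1760 or more counts per genotype, so the spread between libraries, not counting, limits them. The replicate block ended the calls of Tff1 (adjusted p = 0.0601) and Vsig10 (0.0795) among the genes named by rule, and that of Sytl5, which left 4 of the Rab27 list lower; of the glutathione transferases 12 were lower. Among the listed relatives, 5 Ly6 genes were lower with DESeq2 or limma-voom against 3, and 5 junction genes were higher with total counts against 2, with 1 under the block or with no low-count filter.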
